A study of Homo sapiens with 2 samples.

Results

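The genes described here encode enzymes of the urea cycle, of arginine and creatine synthesis and of polyamine metabolism. They are ASS1, ASL, ARG2, CPS1, OTC, GATM, OAT, ODC1, SRM and SAT1, 10 of the 18417 genes that the array's annotation represents by at least 1 transcript cluster (the probe set that stands for a gene) with a single symbol. All 10 were listed by name with earlier results of these arrays in view, and each has exactly 1 such cluster. Their differences are therefore given as a description, with no test.

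Expression was measured on 2 Affymetrix Human Gene 1.0 ST arrays, 1 for ACHN cells transfected with a Kindlin-2 shRNA and 1 for ACHN cells transfected with a control shRNA. ACHN is an established human renal carcinoma line, which the labels call clear cell. Both cultures were kept in medium with 10% FBS and G418, which selects transfected cells, and the labels do not say whether either was a clone or a pool. With 1 array per group (n = 1 each) there is no replicate spread, so every value below is a single measurement and no difference carries a p-value. Values are on the log2 scale as deposited, and a difference is Kindlin-2 shRNA minus control shRNA.

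In the urea cycle, CPS1 and OTC build citrulline in mitochondria, ASS1 joins citrulline to aspartate, ASL splits the product into arginine and fumarate, and arginase splits arginine into urea and ornithine. The whole cycle runs in liver, whereas the proximal tubule of the kidney uses ASS1 and ASL to make arginine from circulating citrulline. It also uses GATM to start creatine synthesis from arginine. Ornithine leaves the cycle through OAT towards glutamate and proline, or through ODC1 to putrescine, which SRM and then SMS extend to spermidine and spermine. SAT1 acetylates spermidine and spermine, which marks them for export or oxidation.

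FERMT2, which encodes Kindlin-2, had 8.26 on the Kindlin-2 shRNA array and 9.37 on the control shRNA array, a level of 46.4% of control. The renal epithelial markers PAX8, PAX2, CDH16, KRT8, KRT18 and EPCAM were all above the brightness floor of 6.52 (the median over every deposited value) on at least 1 array, although CDH16 was under it on the Kindlin-2 shRNA array. Of these 6 markers, 5 had lower values with the Kindlin-2 shRNA, beside 53.2% of all 11822 genes that reached the floor on at least 1 array. CDH16 differed by -0.83, PAX2 by -0.66, KRT8 by -0.54, KRT18 by -0.44 and PAX8 by -0.13, while EPCAM differed by 0.25. KRT18 and EPCAM each have 2 clusters with a single symbol, and only the brighter is given. Chromosomes were taken from the gene in RefSeq, and whether these brighter clusters lie at the genes' own loci was not checked. KRT8 and KRT18 are genes of chromosome 12, where the median difference was -0.21. With the median of the 50 nearest genes on the chromosome subtracted, KRT8 differed by -0.30 and KRT18 by -0.19, and no marker of the 6 changed sign. Of the markers of clear cell hypoxia, VEGFA and ANGPTL4 were above the floor and EGLN3 was not, while CA9 and NDUFA4L2 have no cluster with a single symbol. All 4 endothelial and all 4 leukocyte markers were under the floor on both arrays. Of 5 fibroblast markers, COL1A1 passed with 7.45 on the Kindlin-2 shRNA array and 7.28 on the control shRNA array, COL1A2 and COL3A1 lay at the floor (between 6.50 and 6.52 on both arrays), and DCN and LUM were under it. Of 5 hepatocyte markers, APOA1 and SERPINA1 passed and albumin, TTR and FGB did not. SERPINA1 passed only through the control shRNA array, with 5.97 on the Kindlin-2 shRNA array and 7.02 on the control shRNA array, a difference of -1.05.

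The promoters of the 4 genes that differed by at least 1.5-fold are shown for orientation, from RefSeq (GRCh38.p14), each running 250 bases before to 50 bases after a transcription start, 5′ to 3′ on the gene's strand. Capitals mark matches on either strand to 5 motifs: the E-box CACGTG, the TATA box TATAAA, the GC box GGGCGG, the CCAAT box CCAAT and the CRE TGACGTCA, the site of CREB and ATF factors. The E-box and the CRE read the same on both strands, and adjoining GC boxes can overlap. ASS1 has 2 annotated starts, with windows at chr9:130444457-130444756 and chr9:130444711-130445010 on the plus strand that share 46 bases. The window of GATM is chr15:45378495-45378794 on the minus strand. That of SAT1 is chrX:23782923-23783222 and that of ARG2 is chr14:67619670-67619969, both on the plus strand.
ASS1, first window: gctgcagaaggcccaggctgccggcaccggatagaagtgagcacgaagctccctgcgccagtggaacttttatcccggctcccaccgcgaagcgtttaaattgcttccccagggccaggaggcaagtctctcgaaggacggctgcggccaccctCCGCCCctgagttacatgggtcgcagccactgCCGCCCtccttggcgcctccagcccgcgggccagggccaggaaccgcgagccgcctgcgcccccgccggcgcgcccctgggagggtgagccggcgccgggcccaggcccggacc
ASS1, second window: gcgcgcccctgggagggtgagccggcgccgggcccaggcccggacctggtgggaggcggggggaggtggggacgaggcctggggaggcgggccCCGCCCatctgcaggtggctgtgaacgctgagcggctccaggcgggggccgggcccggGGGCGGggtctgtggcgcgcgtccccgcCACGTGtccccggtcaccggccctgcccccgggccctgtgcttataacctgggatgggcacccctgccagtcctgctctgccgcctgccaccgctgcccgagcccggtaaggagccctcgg
GATM: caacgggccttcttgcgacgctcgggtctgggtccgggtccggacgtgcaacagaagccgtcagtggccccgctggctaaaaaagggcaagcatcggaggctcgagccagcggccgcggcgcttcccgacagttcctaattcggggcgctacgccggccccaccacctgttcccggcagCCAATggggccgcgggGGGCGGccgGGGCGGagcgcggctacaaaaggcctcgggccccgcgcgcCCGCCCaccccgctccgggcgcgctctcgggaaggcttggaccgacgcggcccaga
SAT1: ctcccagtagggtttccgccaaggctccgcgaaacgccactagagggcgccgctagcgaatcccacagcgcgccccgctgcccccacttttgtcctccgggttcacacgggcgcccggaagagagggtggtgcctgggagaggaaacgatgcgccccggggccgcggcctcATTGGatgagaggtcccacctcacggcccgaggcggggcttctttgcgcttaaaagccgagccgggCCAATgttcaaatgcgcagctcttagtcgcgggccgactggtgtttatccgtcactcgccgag
ARG2: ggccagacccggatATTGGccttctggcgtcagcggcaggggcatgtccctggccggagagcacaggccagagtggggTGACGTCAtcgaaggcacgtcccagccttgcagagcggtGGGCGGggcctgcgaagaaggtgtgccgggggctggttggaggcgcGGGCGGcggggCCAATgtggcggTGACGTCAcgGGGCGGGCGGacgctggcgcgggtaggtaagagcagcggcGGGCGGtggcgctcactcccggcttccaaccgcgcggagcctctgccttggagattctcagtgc

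The windows differ in these letters. The second ASS1 window holds 1 E-box, which 7.26% of all 35116 RefSeq promoter windows of this length hold, and each ASS1 window holds 2 GC boxes, which 45.0% hold at least once. GATM has 3 GC boxes and 1 CCAAT box, and SAT1 has 2 CCAAT boxes, a motif of 34.6% of windows, and no GC box. ARG2 has 5 GC boxes, 2 CCAAT boxes and 2 CRE sites, and 1.85% of windows hold a CRE. No window of these 4 genes matches TATAAA, a motif that 11.5% of windows hold. These matches describe the letters only, and no binding was measured.

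ASS1, argininosuccinate synthase, had 8.10 on the Kindlin-2 shRNA array and 10.51 on the control shRNA array. The value was lower with the Kindlin-2 shRNA and still above the floor there. The difference of -2.41 made ASS1 5.31-fold lower, at 18.8% of the control level, and 8 of the 11822 genes kept by the floor (the higher value at or above it) had a larger decrease. A lower bulk value does not tell fewer cells with the transcript from less transcript per cell. The 6 renal epithelial markers had a summed unlogged value of 11462 on the Kindlin-2 shRNA array and 14730 on the control shRNA array. This sum adds values of different probes, weighs the brightest markers most and does not measure a share of cells. The part of these markers in the ASS1 and GATM differences was not tested. RefSeq lists 14 pseudogenes of ASS1 by symbol. None has a cluster of its own with a single symbol, and whether their transcripts bind the probes of the ASS1 cluster was not tested. RefSeq also lists 3 pseudogenes of SRM and 1 each of ASL, ARG2 and OAT. For these too no such cluster exists and binding was not tested.

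The other urea cycle enzymes did not share the size of the ASS1 difference. ASL, argininosuccinate lyase, which acts directly after ASS1, had 7.86 on the Kindlin-2 shRNA array and 7.71 on the control shRNA array, a difference of 0.15. CPS1, the mitochondrial enzyme that starts the cycle, had 8.88 on the Kindlin-2 shRNA array and 8.75 on the control shRNA array, a difference of 0.13. Both were thus slightly higher with the Kindlin-2 shRNA, by 1.11-fold and 1.09-fold. OTC, which forms citrulline, had 3.90 on the Kindlin-2 shRNA array and 4.38 on the control shRNA array. It was under the floor on both arrays and was left out of the counts, and its difference of -0.48 is one between dim values, for which no detection call was used. NAGS, which makes the activator of CPS1, differed by -0.22.

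ARG2, the mitochondrial arginase, stood on the other side. It had 7.10 on the Kindlin-2 shRNA array and 6.40 on the control shRNA array, which is 1.62-fold higher (0.70 on the log2 scale). Its control value lay just under the floor of 6.52, so ARG2 is counted only because of the Kindlin-2 shRNA value. The cytosolic liver arginase ARG1 was under the floor on both arrays, with 3.60 on the Kindlin-2 shRNA array and 3.77 on the control shRNA array. The mitochondrial ornithine carrier SLC25A15 differed by 0.39 and SLC25A13, the carrier that brings aspartate out of mitochondria, by 0.10. Of 10 listed urea cycle genes 7 were kept. ARG2 was at least 1.5-fold higher and ASS1 at least 1.5-fold lower, and the other 5 lay within 1.5-fold. Over all kept genes the shares were 5.1% at least 1.5-fold higher and 5.23% lower by as much.

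**Figure D1:**
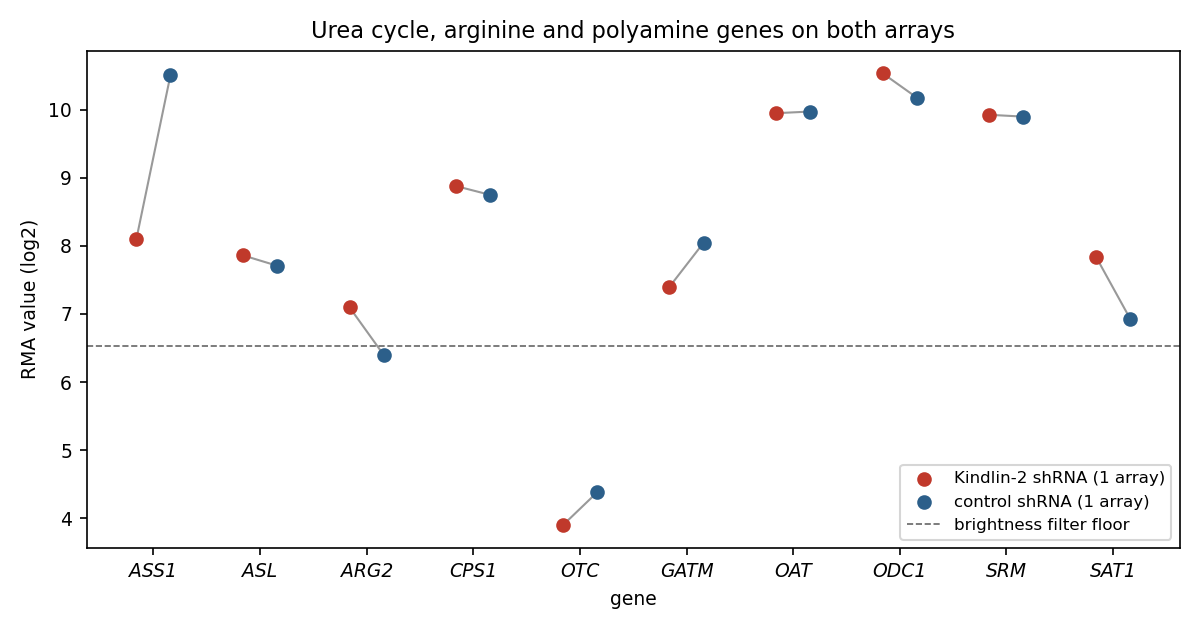
RMA values (log2, y axis) of the 10 genes (x axis), with 1 point for the Kindlin-2 shRNA array on the left of each pair and 1 for the control shRNA array on the right. The line joins both values of a gene and the dashed line is the floor of 6.52. ASS1 shows the steepest line and OTC lies under the floor on both arrays. Heights of different genes rest on different probes and are not comparable.

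GATM, which transfers the amidino group of arginine to glycine in the first step of creatine synthesis, had 7.40 on the Kindlin-2 shRNA array and 8.05 on the control shRNA array. It was 1.57-fold lower, a difference of -0.65. Both values were above the floor. GAMT, which methylates the product of GATM to creatine, differed by -0.30, and the creatine transporter SLC6A8 by -0.24. The brain-type creatine kinase CKB had 7.57 on the Kindlin-2 shRNA array and 8.88 on the control shRNA array, which is 2.48-fold lower. All 4 kept creatine genes were below 0, beside 53.2% of all 11822 kept genes. Their median was -0.47, beside -0.02 over all kept genes, and was -0.27 with genes under the floor included. GATM, 1 of these 4, was listed with earlier results in view, so nothing is read from this count or median. CKM and CKMT2, the muscle creatine kinases, were under the floor, and CKMT1A and CKMT1B have no cluster with a single symbol.

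OAT, which turns ornithine into glutamate semialdehyde, was nearly level, with 9.95 on the Kindlin-2 shRNA array and 9.97 on the control shRNA array. The difference of -0.02 equals the median over all kept genes at this precision. ALDH18A1, which makes the same intermediate from glutamate, differed by -0.24 and PYCR1, which reduces it to proline, by -0.09. PRODH and ALDH4A1, which degrade proline, differed by -0.51 and -0.40. All 6 kept genes of ornithine and proline conversion were below 0, beside 53.2% of all kept genes, and none passed 1.5-fold, but PYCR3 was above 0 (0.06) with its neighbours' median subtracted. The list's median was -0.16, and -0.09 with genes under the floor included. It holds OAT, which was listed with earlier results in view, so nothing is read from this count or median.

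ODC1, ornithine decarboxylase, had 10.53 on the Kindlin-2 shRNA array and 10.18 on the control shRNA array. It was 1.28-fold higher (0.36), and 1375 kept genes had a larger increase. SRM, spermidine synthase, was nearly level, with 9.93 on the Kindlin-2 shRNA array and 9.90 on the control shRNA array. The spermine synthase SMS differed by 0.19 and AMD1, which supplies the aminopropyl donor of both synthases, by 0.15. All 4 genes of polyamine synthesis were kept and none passed 1.5-fold. All were above 0, beside 46.4% of all kept genes, although SRM was at -0.0024 with the median of its chromosome subtracted. The list's median was 0.17, and 0.07 with neighbour medians subtracted. It holds ODC1 and SRM, which were listed with earlier results in view, so nothing is read from this count or median.

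ODC1 protein is controlled after translation by antizymes, which deliver it to the proteasome, and by antizyme inhibitors, which bind antizymes in its place. OAZ1 differed by -0.07, OAZ2 by -0.31, AZIN1 by -0.08 and AZIN2 by -0.39. The 4 kept genes of this list were within 1.5-fold and below 0, beside 53.2% of all kept genes, but OAZ1 (0.04) and AZIN1 (0.08) were above 0 with neighbour medians subtracted. The list's median was -0.19, and -0.08 with genes under the floor included. The array measures RNA only, so the amount of ODC1 protein was not measured.

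SAT1, spermidine/spermine acetyltransferase, had 7.84 on the Kindlin-2 shRNA array and 6.93 on the control shRNA array. Both values were above the floor and the Kindlin-2 shRNA value was higher. SAT1 was 1.88-fold higher (0.91), the largest increase among the 10 genes, and 221 kept genes had a larger increase. The related SAT2 went the other way, with a difference of -0.31. SMOX, which oxidises spermine, differed by 0.37 and PAOX, which oxidises acetylated polyamines, by -0.11. SAT1 alone of these 4 genes of polyamine breakdown passed 1.5-fold, beside 5.1% of all kept genes at least 1.5-fold higher. The list's median was 0.13, and 0.0019 with neighbour medians subtracted. It holds SAT1, which was listed with earlier results in view, so nothing is read from this count or median.

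Counted over the 9 kept members, 2 passed 1.5-fold upwards (SAT1 and ARG2), 2 passed it downwards (ASS1 and GATM) and 5 lay within it, beside 5.1% up and 5.23% down over all kept genes. At 2-fold no member was higher, beside 1.41% of all kept genes, and ASS1 was lower, beside 1.26%. ASS1 was also past 3-fold, as were 0.372% of kept genes in that direction. The members were named with these values known, so nothing is read from their share. The median difference of the 9 was 0.13, with 6 above 0 and 3 below, while 46.4% of all kept genes were above 0 and 53.2% below.

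**Figure D2:**
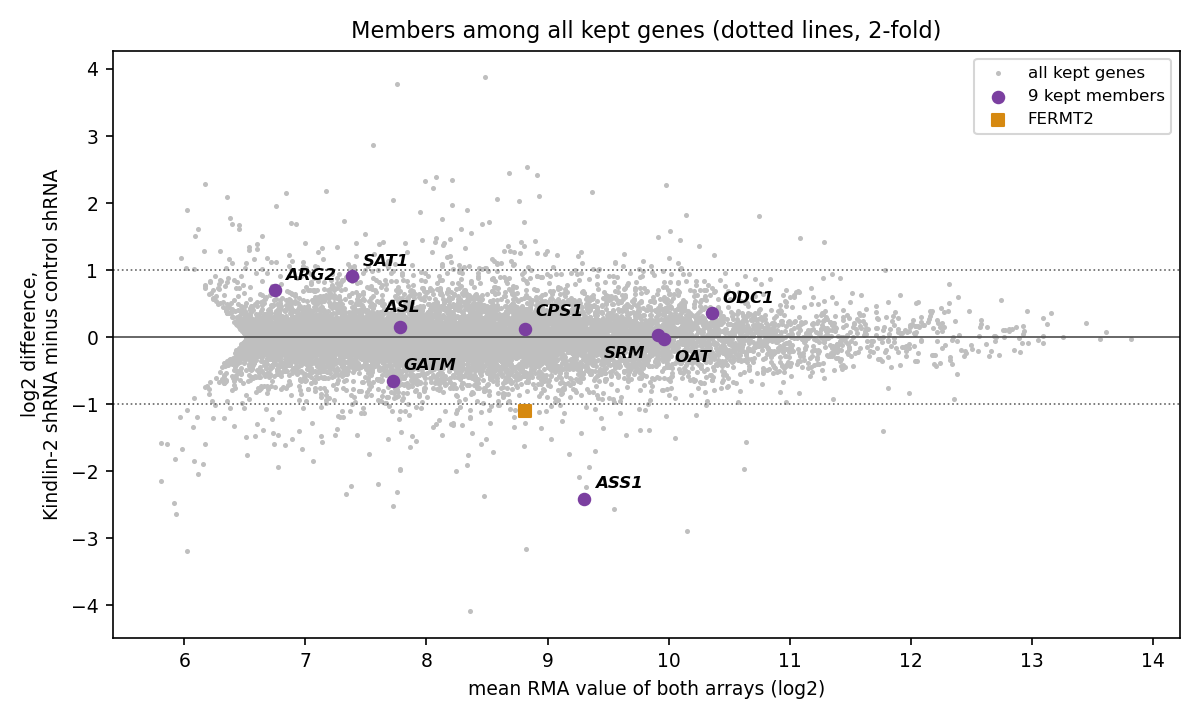
Difference between the arrays (log2, Kindlin-2 shRNA minus control shRNA, y axis) against the mean value of both arrays (log2, x axis) for all 11822 kept genes in grey, the 9 kept members in purple and FERMT2 as a square. Dotted lines mark 2-fold. ASS1 lies at -2.41, below FERMT2 at -1.11, and the other 8 members lie between the dotted lines.

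The pathways around the 10 genes were described through 12 lists that hold 76 genes with the members, of which 70 have a cluster with a single symbol and 54 were kept. Of the 45 kept genes that are not members, 0 passed 1.5-fold upwards and 4 passed it downwards. These are 0% and 8.89% of the 45, beside 5.1% and 5.23% of all kept genes. The lists were chosen with earlier results of these data known, so nothing is read from these shares. Besides CKB, the 4 lower genes were AGMAT, DDAH2 and SLC7A6. AGMAT, annotated as agmatinase, had 6.25 on the Kindlin-2 shRNA array, under the floor, and 7.65 on the control shRNA array, which is 2.62-fold lower.

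DDAH2, of the family that degrades methylarginines, had 7.87 on the Kindlin-2 shRNA array and 8.63 on the control shRNA array, which is 1.69-fold lower. Its 3 clusters differed by -0.76, -0.76 and -0.68, and the first 2 of these clusters have identical values to each other on each array. Its relative DDAH1 differed by -0.30. The nitric oxide synthases NOS1, NOS2 and NOS3, which turn arginine into citrulline, were under the floor on both arrays.

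Arginine enters cells through cationic amino acid transporters. SLC7A1, the main carrier of this kind in many dividing cells, had 9.46 on the Kindlin-2 shRNA array and 9.20 on the control shRNA array, a difference of 0.26. SLC7A6, a light chain that exchanges arginine for neutral amino acids, had 8.65 on the Kindlin-2 shRNA array and 9.36 on the control shRNA array, which is 1.64-fold lower. Its partner chain SLC3A2 differed by 0.07. SLC7A6 was thus the 1 of 6 kept transporters that passed 1.5-fold, beside 5.23% of all kept genes at least 1.5-fold lower. The list was chosen with earlier results known, so nothing is read from this count.

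Aspartate is the second substrate of ASS1. GOT1 and GOT2, the cytosolic and mitochondrial aspartate aminotransferases, differed by -0.37 and 0.05, and ASNS, which uses aspartate to make asparagine, by 0.15. None of the 4 kept genes of this list passed 1.5-fold, beside 5.1% of all kept genes upwards and 5.23% downwards. Among 6 kept genes of the methionine cycle and salvage, which supply and recycle the aminopropyl donor, none did either, and ENOPH1 was the highest at 0.41. MTAP, the first salvage enzyme, was under the floor, with 4.45 on the Kindlin-2 shRNA array and 4.59 on the control shRNA array. The 3 kept genes of hypusine synthesis, the modification of EIF5A made from spermidine, lay between 0.06 and 0.13. The 3 polyamine transporters lay between -0.05 and 0.13.

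**Figure D3:**
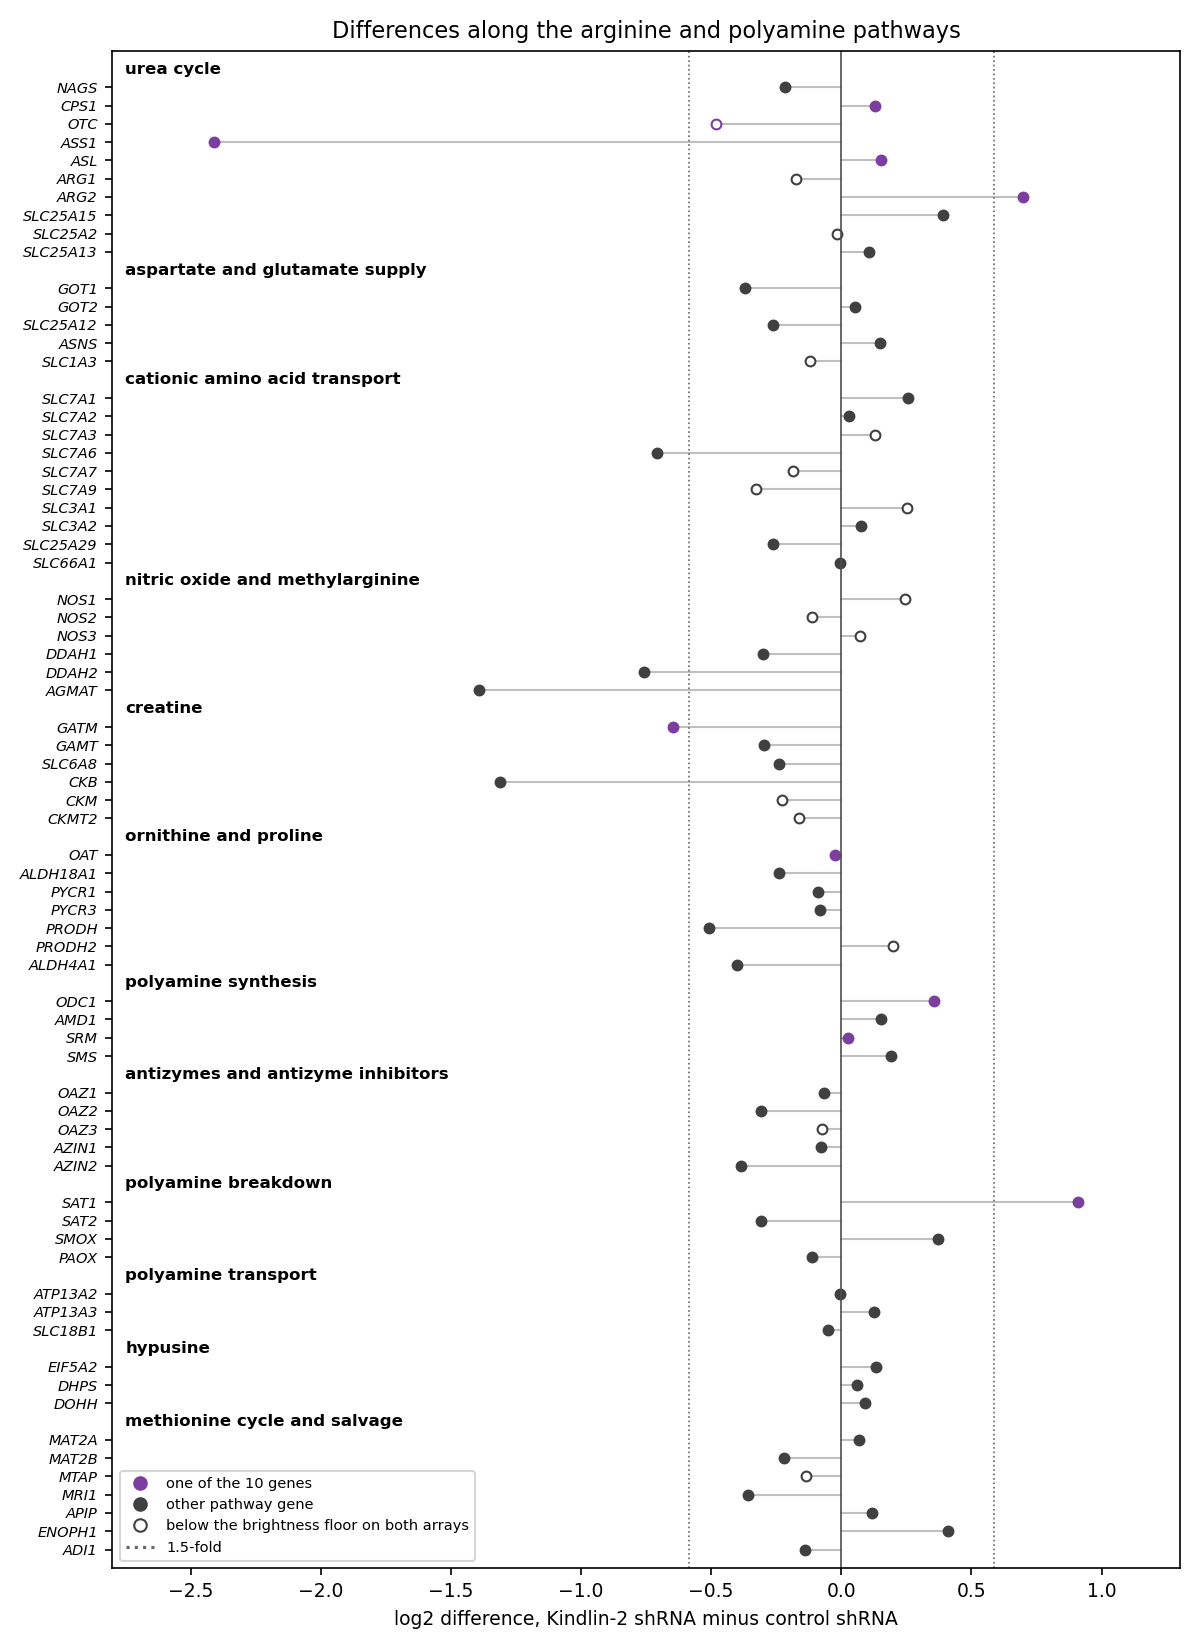
Differences (log2, Kindlin-2 shRNA minus control shRNA, x axis) of the 70 genes with a cluster of their own, grouped by list down the page, with the 10 genes in purple, open circles for genes under the floor on both arrays and dotted lines at 1.5-fold. Filled points beyond the left dotted line are ASS1, SLC7A6, DDAH2, AGMAT, GATM and CKB, and beyond the right one ARG2 and SAT1. Filled points of the creatine and the ornithine and proline lists all lie left of 0, and those of polyamine synthesis all lie right of it, before any chromosome or neighbour median is subtracted (SRM changes side with the first and PYCR3 with the second).

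Median differences were not 0 on every chromosome, so each member was also set beside its neighbours in gene order. ASS1 lies on chromosome 9, where the median difference of 495 kept genes was -0.31 and 83.8% were below 0. No other kept gene of that chromosome had a larger decrease. The 10 nearest kept genes, 5 on each side, ranged from -0.66 (FNBP1) to 0.12 (HMCN2), and with the median of the 50 nearest genes subtracted ASS1 still differed by -2.12. ASL lies on chromosome 7, with a median of -0.22, and differed by 0.26 with its neighbours' median subtracted. By the same subtraction CPS1 differed by 0.03, ODC1 by 0.27, SRM by 0.0031 and OAT by -0.07. OTC, under the floor, differed by -0.51.

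For the other 3 genes past 1.5-fold the neighbours lay nearer to 0. With the median of 50 neighbours subtracted, GATM differed by -0.74, ARG2 by 0.75 and SAT1 by 0.81. The spread around them was not alike. The 10 nearest genes ranged from -0.97 (SQOR) to 0.82 (COXFA4L3) around GATM, beyond GATM's own difference, and from -0.51 (GARIN2) to 0.39 (RAD51B) around ARG2. Around SAT1 they ranged from -0.21 (EIF2S3) to 0.47 (POLA1), and SMS, at 0.19, is the third kept gene from SAT1 on the X chromosome. SMOX, on chromosome 20 with a median of 0.26, differed by 0.12 with its neighbours' median subtracted.

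**Figure D4:**
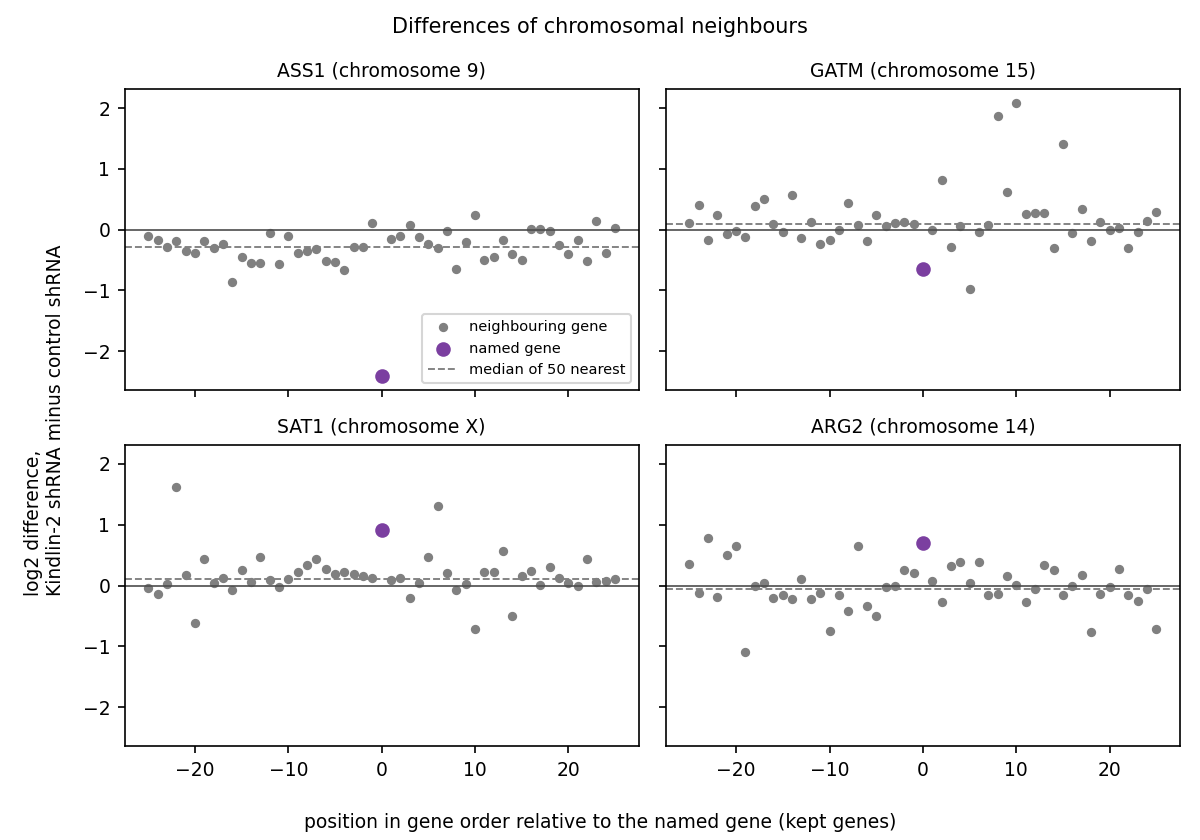
Differences (log2, Kindlin-2 shRNA minus control shRNA, y axis) of ASS1, GATM, SAT1 and ARG2 in purple and of up to 25 kept genes on each side in grey, by their place in gene order (x axis). The dashed line is the median of the 50 nearest genes. ASS1 lies at -2.41 while its neighbours cluster around -0.29, whereas some neighbours of the other 3 genes differ by more than the named gene.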

How the data were processed

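Total RNA of 2 ACHN cultures was hybridised to Affymetrix Human Gene 1.0 ST arrays, and groups were taken from the shRNA label. The deposited log2 values were made by the authors with RMA (background correction, quantile normalisation and probe summary) in Expression Console version 1.4.1, as the submitters' processing notes state. RMA compresses differences between dim values. The log2 scale was judged from the range of 2.13 to 14.04. Not given in the sources used here is the library file. No detection calls were used.

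Of 33297 clusters, 19460 had a single symbol in the platform annotation of GEO, and 19429 of these took the current RefSeq symbol (GRCh38.p14) by Entrez ID. The brightest cluster represented a gene, and genes with at least 1 value of 6.52 (the median over all values) or more were kept. Differences were computed with Python 3.11.15 and pandas 2.3.3. The neighbour median was checked on a planted chromosome shift. A 2-fold cut was tried on simulated differences, apart from the code that made the counts, so the counting itself was not tested. Chromosomes and gene order came from RefSeq. The number of arrays limits the precision.

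The members, pathway lists and promoter motifs were chosen with earlier results of these data known. Named were all members, FERMT2, the listed cell type markers, fixed partner enzymes and list genes at least 1.5-fold apart (up to 3 per list and direction). Others were named after their values were seen. They are OAZ2, SLC6A8, SLC3A2, DDAH1, PRODH, ALDH4A1, PYCR3, GOT1, GOT2, ASNS, ENOPH1, the genes under the floor and the chromosomal neighbours. Alternatives were other filters, folds, normalisations and subtraction of chromosome or neighbour medians.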

Additional observations from a re-analysis of the deposited data

How the results depend on the processing

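With 1 array per group no replicate could be left out, and with summarised values only, other probe summaries were not run. No paired analysis was possible because each group holds 1 array and no test was made. Over 28 results and 224 alternative values, 211 kept their side of 1.5-fold (differences), stayed within 1.5 times (counts) or within 0.1 (medians), 13 moved and 0 reversed sign among differences past 1.5-fold. Some of the 211 could not have moved. A filter does not change the difference of a single gene. Averaging clusters does not change it either where a gene has 1 cluster, as FERMT2 and each member do. The total is therefore not a measure of robustness. ASS1 lay between -2.41 and -2.10, GATM between -0.74 and -0.62, SAT1 between 0.81 and 0.93 and ARG2, where kept, between 0.69 and 0.75, so each kept its direction and its side of 1.5-fold. SRM, near 0, changed sign under 1 alternative (-0.0024 with the chromosome median subtracted). When both values had to reach the floor, ARG2 dropped out and 1 member in place of 2 was at least 1.5-fold higher. With neighbour medians subtracted, the median of the members was 0.027 in place of 0.13. The other 11 moved values were list medians. The nitric oxide and methylarginine list moved most, to -0.21 with dim genes kept, against -0.76 with the floor, and the creatine list was at -0.27 with dim genes kept. The polyamine breakdown list was near 0 with chromosome (-0.0027) or neighbour medians (0.0019) subtracted. The urea cycle list had a median of 0.13, against 0.32 with chromosome medians and 0.24 with neighbour medians subtracted. At a fold of 3, ASS1 was still counted as lower.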
